A study of Mus musculus with 11 samples.

Results

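Cells that had been differentiated from mouse embryonic stem (ES) cells for 4+8 days were set against feeder fibroblasts, the mouse embryonic fibroblasts that serve as a growth layer for ES cells. The arrays were chosen by their titles: 3 name the 4+8 day differentiation (replicates 1, 2 and 3) and 2 name the feeder layer (replicates 6 and 10), which makes 5 of the 11 arrays in the series. The 4+8 day cells came from R1, a mouse ES cell line, and from a differentiation protocol that yields cells expressing nestin. The feeder fibroblasts came from mouse embryos and had not been differentiated. Strain, genotype, passage and any growth arrest of the fibroblasts are not given in the sources used here, and no drug or other treatment is named for either group. The other arrays held undifferentiated R1 cells (3 arrays) and cells after 4+11 days (3 arrays), and they entered the fit to estimate the spread. Per the labels, the ES-derived cultures were 3 independent ones. Nothing says that the feeder arrays stand for separate fibroblast cultures, so their spread, and the p-values that use it, may be technical. Feeder replicate 10 also carries the R1 line as its source name. Its group was taken from its title. Its Spearman correlation with feeder replicate 6 was 0.969 over the probe sets tested, and its level of Pou5f1, the ES cell factor Oct4, was 6.89, where undifferentiated cells averaged 2166 ± 538 (SD, n = 3).

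Feeder fibroblasts are mesenchymal cells that lay down matrix, secrete growth factors and cytokines, and keep ES cells undifferentiated. When ES cells are taken off them and grown as aggregates, cells of all germ layers appear. Heart muscle is among the earliest tissues to form in such cultures, and nestin, an intermediate filament protein, marks neural progenitors in them but is also made by other embryonic cells. A culture of this kind is a mixture, and an array reads the mixture as a whole: fewer cells of a type and less RNA per cell cannot be told apart.

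Each array was an Affymetrix MG_U74Av2 chip with 12488 probe sets, read as intensities. The 4+8 day arrays had a scan session and a chip lot of their own, whereas the feeder arrays shared theirs with the undifferentiated and 4+11 day arrays, so session and group cannot be told apart in any difference between 4+8 day cells and the other groups. The 4+8 day arrays differed more among themselves, with Spearman correlations of 0.81 to 0.884 and a median SD of 0.45 on the log2 scale, against 0.969 and 0.155 for the feeder arrays. Correlations across the groups were 0.717 to 0.807. The 3' to 5' ratio of the beta-actin probe sets, which rises as RNA degrades, was 1.94 ± 0.241 (SD, n = 3) in the 4+8 day arrays and 1.55 ± 0.112 (n = 2) in the feeder arrays (two-sided exact permutation test, p = 0.2). The Gapdh ratio was 0.935 ± 0.0121 in the 4+8 day arrays and 1.01 ± 0.0685 in the feeder arrays (exact p = 0.1, the smallest that 10 splits allow). The part of RNA integrity in the differences was not tested.

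Intensities were quantile normalised over all 11 arrays and tested as log2(intensity + 8) with limma, so a log2 difference understates the change of a dim gene. All log2 differences are 4+8 day minus feeder and stand with their SE, each adjusted p is limma's after Benjamini-Hochberg adjustment over 8940 probe sets, and a gene passed at an adjusted p below 0.05. Intensities are listed by replicate, 1, 2 and 3 for the 4+8 day cells and 6 and 10 for the feeder fibroblasts. Of 8940 probe sets, 2452 passed, which is 27.4%: 1119 were higher (12.5%) and 1333 were lower (14.9%) in the 4+8 day cells. Counted by gene, 843 of 6650 were higher (12.7%) and 1022 were lower (15.4%), together 28%, and the arrays of the groups did not overlap for 3478 genes (52.3%). The total rests on both feeder arrays and on the other groups' spread. It was 1036 without feeder replicate 6, 728 without feeder replicate 10 and 648 when the 5 arrays were fitted alone. The split also moves with the scaling: 84.1% of the probe sets that passed were higher with intensities as deposited and 62.7% with arrays scaled to a common trimmed mean, against 45.6% in the main fit. The median of all log2 differences was 0.56 and 0.21 under those scalings and 0.01 in the main fit. As deposited, each 4+8 day array had a trimmed mean of 200, and feeder replicates 6 and 10 had 160 and 147. Every count below with intensities as deposited includes that offset between the groups. In none of the alternatives run did a probe set pass in the opposite direction.

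The plot of gene lists shows where the passing genes lay. Among the lists above the share of all genes on the higher side were those of the heart sarcomere, epithelium, blood and endothelium. On the lower side they included those of smooth muscle, fibroblast surface and secreted proteins, matrix, proteases and chemokines. The counts of every list below stand against the shares over all genes, 12.7% higher and 15.4% lower.

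**Figure D1:**
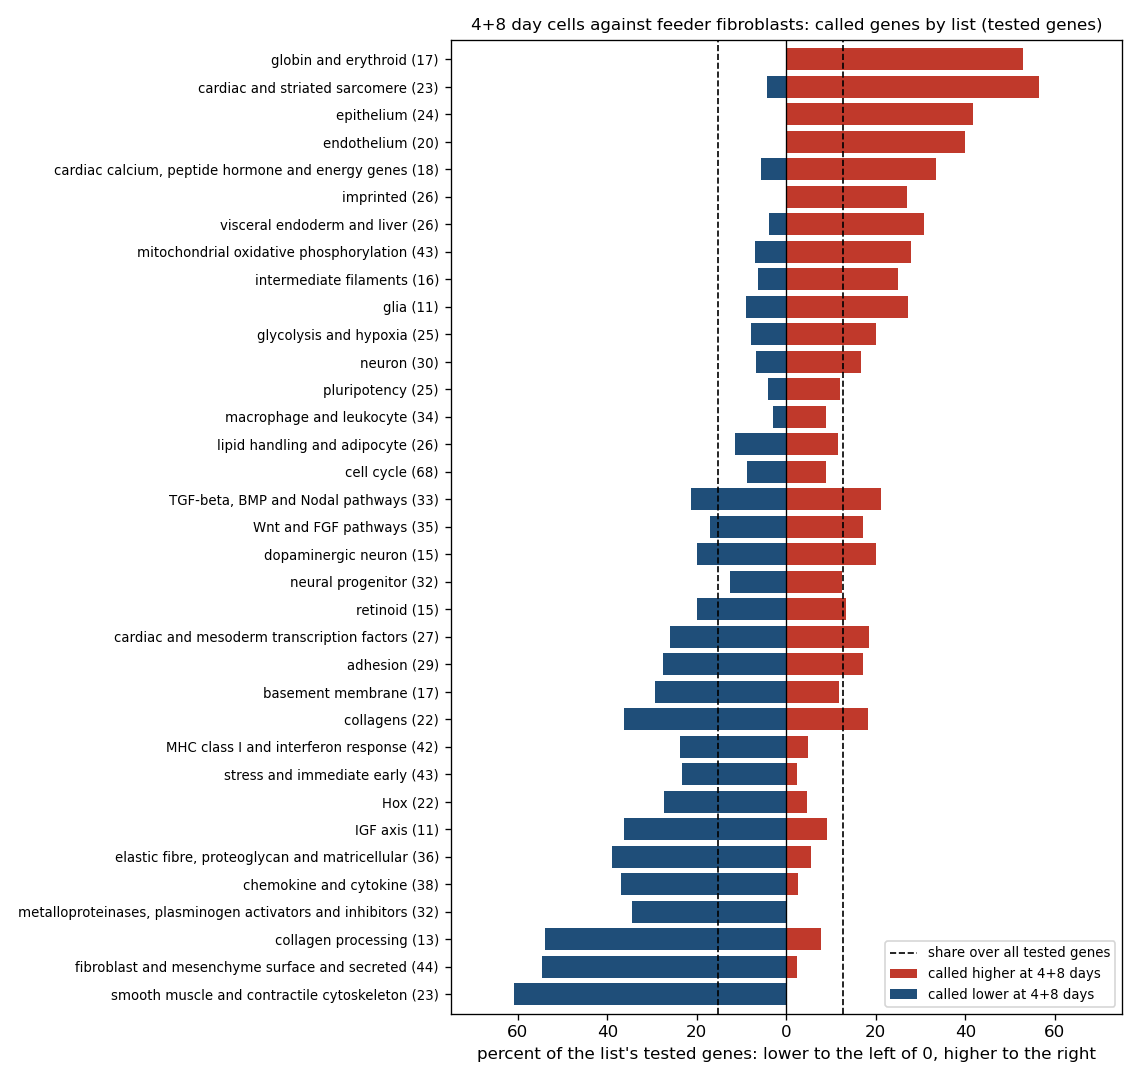
Share of the tested genes in each list that passed at an adjusted p below 0.05 (percent, x axis), higher in 4+8 day cells to the right of 0 and lower to the left, with the number of tested genes after each list's name. The dashed lines mark the shares over all 6650 genes, 12.7% higher and 15.4% lower.

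The heart's contractile apparatus gave the highest log2 differences in the table. Of 23 tested genes of the cardiac and striated sarcomere, 13 were higher in 4+8 day cells, 1 was lower and 9 did not pass, where 12.7% of all genes were higher, and the list's median log2 difference was 2.74 against 0.00 over all genes. Its summed intensity was 11269.6 to 22853 in the 4+8 day arrays and 7066 and 4954 in the feeder arrays. Leaving out feeder replicate 6 or 10 left 12 and 11 higher genes.

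Myh7, a myosin heavy chain of slow and embryonic ventricular muscle, stood at 4381, 1589 and 2888 in the 4+8 day cells and 16.3 and 7.18 in the feeder fibroblasts. Every 4+8 day array was far above both feeder arrays, and the log2 difference was 7.15 ± 0.69 (adjusted p = 0.000278). Its probe set is one of a design that can bind related transcripts. Myh6, the alpha myosin heavy chain of the heart, read 1517, 625 and 523 in 4+8 day cells against 10.9 and 1.88 in feeder fibroblasts (5.87 ± 0.63, adjusted p = 0.000432). Replicate 1 was the highest of the 3 for both heavy chains.

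The myosin light chains followed the same order of groups. Myl7, the regulatory light chain of the atrium, was at 2152, 1600.0 and 1069 in 4+8 day cells and 7.77 and 7.55 in feeder fibroblasts (6.63 ± 0.68, adjusted p = 0.000349). The ventricular regulatory chain Myl2 read 847, 167 and 518 in 4+8 day cells against 3.35 and 2.87 in feeder fibroblasts (5.27 ± 0.73, adjusted p = 0.00122). Myl3, the ventricular essential chain, had 609.5, 111 and 145 in 4+8 day cells and 2.33 and 1.47 in feeder fibroblasts (4.50 ± 0.75, adjusted p = 0.00303). Chains of atrium and of ventricle were both read, and the groups overlapped for none of the 3. Myl4, the essential chain of the atrium and of embryonic muscle, was already readable in feeder fibroblasts at 71.5 and 43.6, against 2037, 880.1 and 1145 in 4+8 day cells (4.32 ± 0.55, adjusted p = 0.000818).

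Of the troponins, Tnnt2, Tnni1, Tnni3 and Tnnc1 passed as higher, and Tnnt1 and Tnnc2 of skeletal muscle did not pass (adjusted p = 0.798 and 0.405). Tnnt2, cardiac troponin T, read 1459, 463 and 606 in 4+8 day cells and 38.5 and 32.8 in feeder fibroblasts (4.11 ± 0.53, adjusted p = 0.000893). Tnni1, the troponin I of embryonic heart and slow muscle, had 1624, 937 and 1405 in 4+8 day cells and 157 and 51.7 in feeder fibroblasts (3.71 ± 0.53, adjusted p = 0.00146), and Tnni3, the adult cardiac form, had 144, 85.5 and 149.5 in 4+8 day cells against 20.6 and 5.41 in feeder fibroblasts (2.74 ± 0.48, adjusted p = 0.00354). Mybpc3, cardiac myosin-binding protein C, differed by 4.18 ± 0.61 (adjusted p = 0.00159) and Csrp3, the muscle LIM protein of the Z-disc, by 4.50 ± 0.41 (adjusted p = 0.000234). Tnnc1, troponin C of heart and slow muscle, differed by 2.88 ± 0.61 (adjusted p = 0.00848; 0.0912 without feeder replicate 10).

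Sarcomeric actin did not move as one. Actc1, cardiac alpha-actin, was read by a pair of probe sets that disagreed: the brighter, of a design that binds related actins, had 3263, 1456 and 2142 in 4+8 day cells and 1380.4 and 637 in feeder fibroblasts (1.20 ± 0.48, adjusted p = 0.0881; 0.0485 without 4+8 day replicate 2), and the other differed by 4.79 (adjusted p = 0.00284). Acta1, skeletal alpha-actin, was the list's lower gene, at 15.4, 53.3 and 12.2 in 4+8 day cells and 151 and 66.8 in feeder fibroblasts (−1.83 ± 0.47, adjusted p = 0.0191). It did not pass without 4+8 day replicate 1 (adjusted p = 0.0509) or feeder replicate 6 (adjusted p = 0.166).

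**Figure D2:**
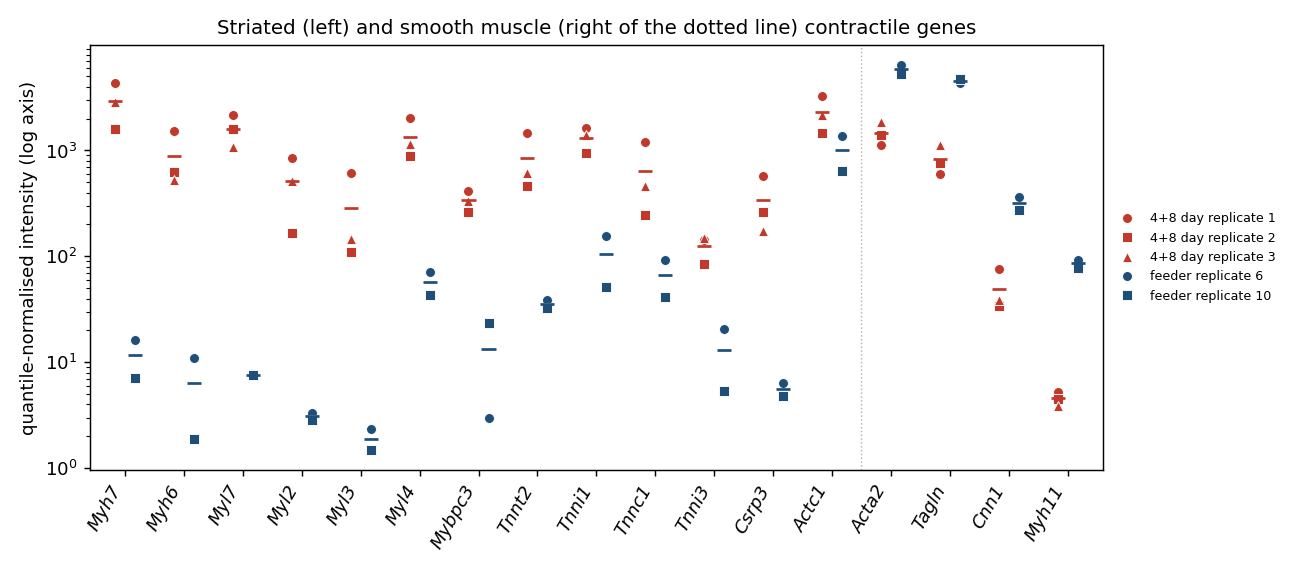
Quantile-normalised intensity (log axis) of striated muscle genes, left of the dotted line, and smooth muscle genes, right of it, with 1 point per array, 4+8 day arrays in red left of feeder arrays in blue, and bars for group means. Myh7 lies at 4381, 1589 and 2888 in 4+8 day cells against 16.3 and 7.18 in feeder fibroblasts, and the smooth muscle genes shown are lower in 4+8 day cells.

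Promoter sequences are shown for 3 of the sarcomere genes, because motifs known from cardiac promoters lie close to their start sites. Each runs 5′ to 3′ over the 150 bases before the RefSeq transcription start (build GRCm38.p6), with capitals marking matches to the MCAT element (CATTCC, bound by TEAD factors) or the CArG box (bound by SRF). Myl7 is at chr11:5898783-5898932 on the minus strand, Myl3 at chr9:110763528-110763677 and Tnnc1 at chr14:31208162-31208311, both on the plus strand.
Myl7: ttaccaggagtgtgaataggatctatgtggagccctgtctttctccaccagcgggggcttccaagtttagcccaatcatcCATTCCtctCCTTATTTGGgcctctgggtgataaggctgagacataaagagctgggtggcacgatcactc
Myl3: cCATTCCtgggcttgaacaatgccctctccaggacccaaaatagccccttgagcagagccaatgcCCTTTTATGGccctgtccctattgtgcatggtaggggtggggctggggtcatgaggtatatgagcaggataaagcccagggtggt
Tnnc1: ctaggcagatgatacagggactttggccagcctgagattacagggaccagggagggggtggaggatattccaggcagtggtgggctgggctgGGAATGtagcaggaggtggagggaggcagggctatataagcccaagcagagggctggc
In Myl7 the MCAT match spans −70 to −65 and the CArG match −61 to −52, and in Myl3 they span −149 to −144 and −85 to −76. Tnnc1 has an MCAT match on the other strand at −58 to −53. Both strands of the 250 bases before each start were searched, and matches of different motifs could overlap. Of the 13 higher sarcomere genes, 6 held an MCAT match (46.2%; Myh6, Myh7, Myl3, Myl7, Tnnc1 and Tnnt2), against 14.4% of 27025 genes in the table. A CArG match was in 3 (23.1%; Ldb3, Myl3 and Myl7), against 1.62% of all, and a MEF2 match in 1 (7.69%; Mybpc3), against 0.592% of all. These are matches of letters in a window, not measured binding.

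The same sarcomere genes can be read in the 4+11 day cells, whose arrays shared session and lot with the feeder arrays. Both comparisons use the same feeder arrays, so they are given side by side only. Myh7 averaged 2953 ± 1397 in 4+8 day cells, 391 ± 261 in 4+11 day cells and 11.8 ± 6.47 in feeder fibroblasts (SD, n = 3, 3 and 2), and its log2 difference from feeder fibroblasts was 7.15 at 4+8 days and 4.01 at 4+11 days (adjusted p = 0.0138 for the 4+11 day value). For Myh6 these were 5.87 and 3.69 (adjusted p = 0.0133), and for Myl7 6.63 and 3.06 (adjusted p = 0.0425). Csrp3 was at 4.50 and 2.44 (adjusted p = 0.0119). Myl2, at 5.27 and 4.59, also passed (adjusted p = 0.00936). Tnnt2, at 4.11 and 2.06, did not pass at 4+11 days (adjusted p = 0.0745). Neither did Myl3, at 4.50 and 3.21 (adjusted p = 0.0514), Mybpc3, at 4.18 and 1.73 (adjusted p = 0.188), or Myl4, at 4.32 and 1.51 (adjusted p = 0.203).

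Other heart genes were less uniform. Among 18 tested genes of calcium handling, peptide hormones and energy supply, 6 were higher, 1 was lower and 11 did not pass, and 3 were higher without feeder replicate 10. With intensities as deposited the count was 14. Cox6a2, the muscle form of a cytochrome c oxidase subunit, read 974, 391 and 844 in 4+8 day cells and 36.1 and 57.4 in feeder fibroblasts (3.69 ± 0.52, adjusted p = 0.00136). Cox8b, another muscle form, differed by 1.85 ± 0.24 (adjusted p = 0.000879), and Slc8a1, the sodium-calcium exchanger, by 2.18 ± 0.34 (adjusted p = 0.00205). Ckb, the brain-type creatine kinase, stood at 1339, 2276 and 814 in 4+8 day cells and 309.8 and 240.5 in feeder fibroblasts (2.28 ± 0.48, adjusted p = 0.00765; 0.0736 without feeder replicate 10).

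Transcription factors of heart and mesoderm went both ways: of 27 tested, 5 were higher, 7 were lower and 15 did not pass. Those shares, 18.5% higher and 25.9% lower, stand against 12.7% and 15.4% of all genes. Isl1, a factor of the second heart field and of motor neurons, was low but separate, at 61.6, 43.2 and 32.3 in 4+8 day cells and 5.86 and 5.41 in feeder fibroblasts (1.94 ± 0.30, adjusted p = 0.00189). Gata6, shared by heart and primitive endoderm, read 514, 223 and 555 in 4+8 day cells and 74.1 and 56.6 in feeder fibroblasts (2.49 ± 0.51, adjusted p = 0.00704; 0.0685 without feeder replicate 10). Hand2, Tcf21 and Myog, a factor of skeletal muscle, were also higher. Their log2 differences were 1.93 (adjusted p = 0.0236), 1.86 (adjusted p = 0.0136) and 1.74 (adjusted p = 0.00677). Hand2 did not pass without 4+8 day replicate 1 or 3 (adjusted p = 0.0564 and 0.0517). Gata4 differed by 0.28 and did not pass (adjusted p = 0.693). The lower genes were Mef2a, Meox2, Prrx1, Prrx2, Snai1, Snai2 and Tcf15. Snai1, a repressor of epithelial genes, had 5.42, 10.6 and 12.3 in 4+8 day cells against 143 and 194 in feeder fibroblasts (−3.34 ± 0.29, adjusted p = 0.000203). Meox2, a homeobox factor of mesoderm, was at 2.24, 1.73 and 0.955 in 4+8 day cells and 63.9 and 79.3 in feeder fibroblasts (−3.04 ± 0.22, adjusted p = 0.000102), and Prrx1, a homeobox factor of limb and skin mesenchyme, differed by −3.00 ± 0.51 (adjusted p = 0.0033). Nkx2-5, a cardiac homeobox factor, did not pass the intensity filter. The counts were 3 higher and 4 lower without feeder replicate 6 and 1 and 4 without replicate 10, and the balance turned to 10 higher and 4 lower with intensities as deposited and to 9 and 6 with arrays scaled to a common trimmed mean.

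Smooth muscle and the contractile cytoskeleton formed the counterpart to the sarcomere. Of 23 tested genes 0 were higher, 14 were lower (60.9%, where 15.4% of all genes were lower) and 9 did not pass, with a median log2 difference of −1.42. Summed intensity was 11335 to 16883 in the 4+8 day arrays and 36405 and 36687 in the feeder arrays. Tagln, the actin-binding protein SM22, read 593, 763 and 1121 in 4+8 day cells and 4381 and 4699.6 in feeder fibroblasts (−2.50 ± 0.35, adjusted p = 0.00135). Cnn1 and Cnn2 encode calponins, which brake actomyosin. Cnn1 had 76.1, 34.2 and 38.9 in 4+8 day cells against 367 and 275 in feeder fibroblasts (−2.57 ± 0.42, adjusted p = 0.00291), and Cnn2 differed by −2.68 ± 0.27 (adjusted p = 0.00032). Myh11, the smooth muscle myosin heavy chain, stood at 5.26, 4.51 and 3.89 in 4+8 day cells and 93.3 and 78.5 in feeder fibroblasts (−2.90 ± 0.26, adjusted p = 0.000232). Acta2, smooth muscle alpha-actin, was at 1123, 1403 and 1857 in 4+8 day cells and 6463 and 5311 in feeder fibroblasts (−2.03 ± 0.48, adjusted p = 0.0135; 0.0912 without feeder replicate 6 and 0.072 without replicate 10). At an unadjusted p below 0.05, 0 smooth muscle genes were higher. The lower count was 9 without feeder replicate 6 and 7 without replicate 10.

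The fibroblast label was checked against its markers. Thy1, a surface protein of fibroblasts, T cells and neurons, gave the lowest log2 difference of all genes, with 31.8, 6.97 and 7.78 in 4+8 day cells and 1116 and 2308 in feeder fibroblasts (−6.26 ± 0.60, adjusted p = 0.000271). The classic matrix markers did not follow it. Col1a1, the main chain of type I collagen, was at 10278, 2826 and 14356 in 4+8 day cells and 16256 and 17256 in feeder fibroblasts (−1.16 ± 0.59, adjusted p = 0.167). Col1a2 and Col3a1 differed by −0.60 ± 0.51 (adjusted p = 0.42) and −0.70 ± 0.35 (adjusted p = 0.166; 0.0498 without 4+8 day replicate 3). A second, dimmer probe set of Col1a2 was higher in 4+8 day cells, by 1.57 (adjusted p = 0.00339). Postn, periostin, read 2244, 2022 and 3286 in 4+8 day cells and 3732 and 3838 in feeder fibroblasts (adjusted p = 0.408), and S100a4, also called fibroblast-specific protein, 432, 103 and 511 in 4+8 day cells and 1192 and 2188 in feeder fibroblasts (adjusted p = 0.0657). Fn1, fibronectin, also a fixed fibroblast marker, went the other way and was higher in 4+8 day cells. It differed by 1.17 ± 0.35 (adjusted p = 0.0338; 0.0669 without 4+8 day replicate 3). Vim, vimentin, did not pass the intensity filter on this chip.

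Surface and secreted proteins of fibroblasts and mesenchyme were lower as a list. Of 44 tested genes 1 was higher, 24 were lower and 19 did not pass, with a median log2 difference of −1.51, and the list summed to 12782 to 31405 in the 4+8 day arrays and 62896 and 66408 in the feeder arrays. Emp1, an epithelial membrane protein also made by fibroblasts, read 254, 124 and 385 in 4+8 day cells and 6067 and 6543 in feeder fibroblasts (−4.73 ± 0.44, adjusted p = 0.000246). Lgals3, galectin-3, had 21.3, 5.45 and 47 in 4+8 day cells and 391 and 373 in feeder fibroblasts (−3.81 ± 0.66, adjusted p = 0.00359). Fgf7, keratinocyte growth factor, a mesenchymal signal to epithelium, was at 28.1, 4.65 and 22.8 in 4+8 day cells and 140.0 and 259 in feeder fibroblasts (−3.04 ± 0.45, adjusted p = 0.00163). The platelet-derived growth factor receptors Pdgfra and Pdgfrb differed by −1.93 ± 0.26 (adjusted p = 0.00102) and −2.37 ± 0.29 (adjusted p = 0.000725), and Fst, which binds activin, by −3.73 ± 0.82 (adjusted p = 0.00963; 0.0811 without feeder replicate 10). Igf1 was the higher gene, at 283, 334 and 385 in 4+8 day cells and 111 and 87.4 in feeder fibroblasts (1.67 ± 0.26, adjusted p = 0.0022), though its other probe set gave −1.51 (adjusted p = 0.185). Lower genes of the list numbered 14 without feeder replicate 6 and 12 without replicate 10, and 16 with intensities as deposited.

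The collagen list had 4 higher, 8 lower and 10 not passing of 22, the higher ones being Col9a1, Col9a2, Col13a1 and Col18a1 and the lower ones Col5a2, Col6a1, Col6a2, Col6a3, Col7a1, Col8a1, Col11a1 and Col15a1. Col8a1, a network collagen of vessels and cornea, read 41.3, 26 and 44.1 in 4+8 day cells and 654 and 699 in feeder fibroblasts (−3.95 ± 0.40, adjusted p = 0.00035). Col6a2 of the beaded filaments differed by −2.48 ± 0.25 (adjusted p = 0.00032), and Col11a1, a minor fibrillar chain of cartilage, by −2.61 ± 0.45 (adjusted p = 0.00341). Col5a2, which helps set fibril width, had 900.4, 224 and 2410.2 in 4+8 day cells and 5911 and 5851 in feeder fibroblasts (−2.88 ± 0.80, adjusted p = 0.0248; 0.114 without feeder replicate 6 and 0.125 without replicate 10). The lower count was 4 and 3 without those arrays, and with intensities as deposited 6 collagens were higher and 6 lower.

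Enzymes that process collagen were lower in 7 of 13 cases, higher in 1 and not passing in 5 (2 lower without feeder replicate 6, 1 without replicate 10, 4 without 4+8 day replicate 1 and 3 with intensities as deposited). Pcolce, which enhances cleavage of the procollagen tail, read 452, 309.6 and 385 in 4+8 day cells and 1423 and 1500.2 in feeder fibroblasts (−1.93 ± 0.30, adjusted p = 0.0021). Lox, lysyl oxidase, which cross-links collagen and elastin, spread widely in 4+8 day cells at 207, 58.6 and 970.4, against 4129 and 3757 in feeder fibroblasts (−4.03 ± 0.89, adjusted p = 0.0097; 0.0628 without feeder replicate 6 and 0.0673 without replicate 10). P4hb, protein disulfide isomerase and a subunit of prolyl hydroxylase, was the higher gene, by 1.64 ± 0.33 (adjusted p = 0.00654; 0.0737 without feeder replicate 10).

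Elastic fibre, proteoglycan and matricellular genes were lower in 14 of 36 cases, higher in 2 and not passing in 20. Thbs2, thrombospondin 2, a matricellular inhibitor of vessel growth, read 5.51, 4.36 and 35.3 in 4+8 day cells and 1251 and 1403 in feeder fibroblasts (−6.11 ± 0.51, adjusted p = 0.000177). Bgn, the small proteoglycan biglycan, had 129.8, 223 and 335 in 4+8 day cells and 7072 and 8008 in feeder fibroblasts (−5.09 ± 0.35, adjusted p = 7.99e-05). Mfap5, a glycoprotein of microfibrils, was at 5.26, 3.62 and 5.65 in 4+8 day cells and 401 and 537 in feeder fibroblasts (−5.20 ± 0.26, adjusted p = 1.68e-05), and a second, dim probe set gave 0.65 (adjusted p = 0.359). For these genes no 4+8 day array came near a feeder array. Ltbp2, a microfibril-associated protein, differed by −4.34 ± 0.50 (adjusted p = 0.000543) and Fmod, fibromodulin, by −3.43 ± 0.48 (adjusted p = 0.00125). The higher genes were Vtn and Fn1, adhesive glycoproteins of plasma and matrix. Vtn, vitronectin, read 156, 130.3 and 25.9 in 4+8 day cells and 6 and 2.08 in feeder fibroblasts (2.95 ± 0.56, adjusted p = 0.00522; 0.0574 without feeder replicate 10). Fn1, fibronectin, had 1342, 1224 and 2257 in 4+8 day cells and 814 and 577 in feeder fibroblasts (1.17 ± 0.35, adjusted p = 0.0338; 0.0669 without 4+8 day replicate 3, 0.0763 without feeder replicate 6 and 0.229 without replicate 10). The list's lower count was 9 and 7 without feeder replicates 6 and 10.

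**Figure D3:**
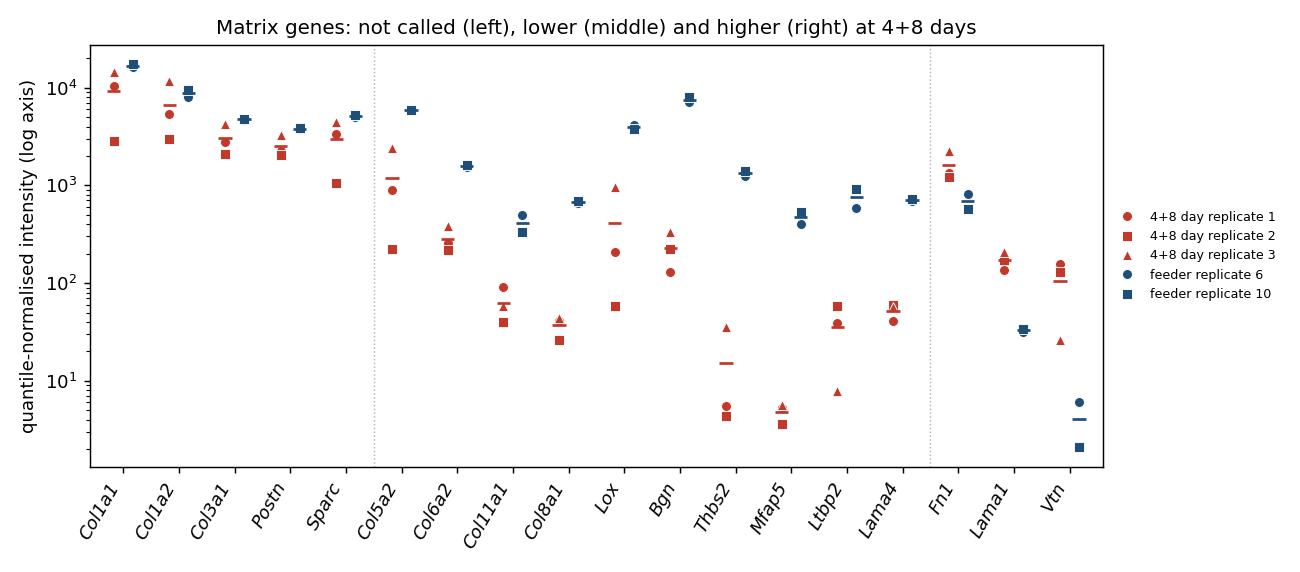
Quantile-normalised intensity (log axis) of matrix genes, 1 point per array, 4+8 day arrays in red left of feeder arrays in blue, with bars for group means. From left to right stand genes that did not pass (such as Col1a1), genes lower in 4+8 day cells (such as Bgn, at 129.8, 223 and 335 in 4+8 day cells against 7072 and 8008 in feeder fibroblasts) and genes higher in them.

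In the basement membrane list 2 genes were higher, 5 lower and 10 of 17 did not pass, and the laminin alpha chains went opposite ways. Lama4, the alpha chain of vessel and muscle laminins, read 40.6, 59.4 and 56.5 in 4+8 day cells and 699 and 726 in feeder fibroblasts (−3.60 ± 0.25, adjusted p = 7.99e-05). Lama1, the alpha chain of the earliest embryonic laminin, had 135, 174 and 208 in 4+8 day cells and 31.8 and 34 in feeder fibroblasts (2.12 ± 0.53, adjusted p = 0.0161; 0.0903 without feeder replicate 6 and 0.0921 without replicate 10). With feeder replicate 6 or 10 left out 1 gene of the list was lower, and with intensities as deposited 3 were.

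Proteases and their inhibitors were lower where they passed: 11 of 32 lower, 0 higher and 21 not passing. Serpinf1, pigment epithelium-derived factor, a secreted serpin, read 163, 89.6 and 143 in 4+8 day cells and 3074 and 4328 in feeder fibroblasts (−4.75 ± 0.37, adjusted p = 0.000136), while its dimmer probe set gave −0.24 (adjusted p = 0.719). Mmp3, stromelysin, had 3.08, 5.15 and 21.2 in 4+8 day cells and 213 and 361 in feeder fibroblasts (−4.14 ± 0.55, adjusted p = 0.001). F3, tissue factor, which starts clotting, differed by −3.82 ± 0.33 (adjusted p = 0.000196), and the inhibitors Timp1 and Timp2 by −2.77 ± 0.51 (adjusted p = 0.00465) and −2.34 ± 0.35 (adjusted p = 0.00187). At an unadjusted p below 0.05, 1 of this list were higher. Lower proteases and inhibitors numbered 17 without 4+8 day replicate 3, 6 without feeder replicate 6 and 5 without replicate 10, and 7 with intensities as deposited.

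Chemokines and cytokine genes were lower in 14 of 38 cases, higher in 1 (Vegfb) and not passing in 23, and their summed intensity was 2198 to 7003 in the 4+8 day arrays and 10871 and 17952 in the feeder arrays. Cxcl5 and Cxcl1 attract neutrophils. Cxcl5 read 25.5, 5.91 and 25.9 in 4+8 day cells and 473 and 1687 in feeder fibroblasts (−5.17 ± 0.66, adjusted p = 0.000863). Cxcl1 had 13.2, 2.8 and 65.9 in 4+8 day cells and 404 and 1371 in feeder fibroblasts (−4.88 ± 0.97, adjusted p = 0.00619; 0.0738 without feeder replicate 10). The feeder arrays themselves lay far apart for these genes, with replicate 10 the higher for both. Ptx3, a soluble pattern recognition protein, was at 30.7, 42.9 and 85 in 4+8 day cells and 531 and 1416 in feeder fibroblasts (−3.95 ± 0.44, adjusted p = 0.000518). Osmr, the oncostatin M receptor, read 36.1, 5.45 and 54 in 4+8 day cells and 671 and 704 in feeder fibroblasts (−4.39 ± 0.56, adjusted p = 0.000818), and Il6st, the gp130 chain through which LIF also signals, differed by −2.24 ± 0.33 (adjusted p = 0.00176). Il6 itself had 1.72, 2.41 and 3.46 in 4+8 day cells and 24.8 and 71.6 in feeder fibroblasts (−2.28 ± 0.71, adjusted p = 0.0375), and it passed in none of the 5 fits that left out 1 array, with adjusted p from 0.0547 without 4+8 day replicate 3 to 0.27 without feeder replicate 10. Lower chemokine and cytokine genes numbered 9 without feeder replicate 6 and 8 without replicate 10, and with intensities as deposited 10 genes were higher and 12 lower.

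The promoters of Cxcl1 and Il6 are shown because each has a match to the NF-kB motif close to the start, at −71 to −61 in Cxcl1 (a pair of overlapping matches) and −44 to −35 in Il6. They are printed 5′ to 3′ over the 150 bases before the RefSeq start (GRCm38.p6, plus strand, chr5:90891095-90891244 and chr5:30012964-30013113), with the matches in capitals.
Cxcl1: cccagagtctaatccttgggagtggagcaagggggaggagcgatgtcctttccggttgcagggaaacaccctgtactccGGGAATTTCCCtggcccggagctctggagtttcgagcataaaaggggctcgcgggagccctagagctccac
Il6: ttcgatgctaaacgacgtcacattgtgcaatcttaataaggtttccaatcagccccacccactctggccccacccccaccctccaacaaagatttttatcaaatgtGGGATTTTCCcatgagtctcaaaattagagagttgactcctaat
Of the 14 lower genes of the list, 9 had a promoter in the RefSeq table, and 3 of these held an NF-kB match in the 250 bases before the start (33.3%; Cxcl1, Il1r1 and Il6), against 8.23% of 27025 genes. The same motif was in 4 of the 13 higher sarcomere genes (30.8%). In turn, an MCAT match was in 2 of the 9 chemokine and cytokine genes (22.2%; Il1r1 and Il1rn), against 14.4% of all genes. CArG and MEF2 matches were in 0 of the 9.

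MHC class I and interferon response genes were lower in 10 of 42 cases, higher in 2 and not passing in 30. These calls depended on single arrays: the lower count was 16 without 4+8 day replicate 3, 5 without feeder replicate 6 and 0 without replicate 10, and with intensities as deposited 9 were higher and 4 lower. H2-D1, a class I heavy chain whose probe set can bind its relatives, had 353, 181 and 612 in 4+8 day cells and 1043 and 1999 in feeder fibroblasts (−2.06 ± 0.52, adjusted p = 0.0171; 0.157 without feeder replicate 10). Gbp2, an interferon-induced GTPase, read 32.4, 3.48 and 76 in 4+8 day cells and 127 and 169.9 in feeder fibroblasts (−2.19 ± 0.64, adjusted p = 0.0301; 0.101 without feeder replicate 6 and 0.173 without replicate 10). Replicate 2 was the lowest 4+8 day array for both genes.

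Adhesion molecules were 5 higher, 8 lower and 16 not passing of 29 (17.2% and 27.6%, against 12.7% and 15.4% of all genes). Cd24a, a surface glycoprotein of embryonic epithelium and neural cells, read 3230.3, 5089 and 2008 in 4+8 day cells and 370.1 and 186 in feeder fibroblasts (3.57 ± 0.54, adjusted p = 0.00187). Icam1, a ligand of leukocyte integrins, had 8.53, 5.1 and 26.8 in 4+8 day cells and 178 and 236 in feeder fibroblasts (−3.44 ± 0.51, adjusted p = 0.00175), and Itga5, the alpha chain of the fibronectin receptor, differed by −2.64 ± 0.25 (adjusted p = 0.000269). Lower adhesion genes numbered 3 without feeder replicate 6 and 3 without replicate 10, and with intensities as deposited 10 were higher and 6 lower.

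Epithelial genes were higher in 4+8 day cells where they passed. Of 24 tested, 10 were higher, 0 were lower and 14 did not pass, with a median log2 difference of 1.43, and the list summed to 3559.6 to 5385 in the 4+8 day arrays and 1819 and 1237 in the feeder arrays. Krt8, a keratin of simple epithelia, read 926, 526 and 823 in 4+8 day cells and 40.3 and 18.3 in feeder fibroblasts (4.39 ± 0.71, adjusted p = 0.00258). Its partner Krt18 had 458, 363 and 447 in 4+8 day cells and 49.3 and 26.3 in feeder fibroblasts (3.27 ± 0.76, adjusted p = 0.0118; 0.102 without feeder replicate 10). Dsp, desmoplakin of the desmosome, a junction of epithelium and heart alike, was at 779.7, 381 and 780.5 in 4+8 day cells and 43.9 and 25.2 in feeder fibroblasts (3.91 ± 0.41, adjusted p = 0.000397). Cldn6, a tight junction claudin of embryonic epithelium, differed by 2.82 ± 0.53 (adjusted p = 0.00492). Cdh1, E-cadherin, was tight in both groups, at 206, 224 and 212 in 4+8 day cells and 96.4 and 91.5 in feeder fibroblasts (1.12 ± 0.17, adjusted p = 0.00189). Epcam, an epithelial adhesion molecule, differed by 1.60 and did not pass (adjusted p = 0.0565). At an unadjusted p below 0.05, 0 epithelial genes were lower. Without feeder replicate 10 the higher count was 6, and with intensities as deposited it was 17.

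Visceral endoderm and liver genes were higher in 8 of 26 cases, lower in 1 and not passing in 17. Cited1, a transcriptional coactivator, read 335, 241 and 233 in 4+8 day cells and 42.7 and 14.3 in feeder fibroblasts (3.03 ± 0.35, adjusted p = 0.000543). Sox17, a factor of endoderm and endothelium, had 131, 144 and 83.8 in 4+8 day cells and 21.2 and 18.3 in feeder fibroblasts (2.17 ± 0.39, adjusted p = 0.004). Ttr, the thyroxine carrier transthyretin, was at 78.3, 91.6 and 66.7 in 4+8 day cells and 15.6 and 9.74 in feeder fibroblasts (2.08 ± 0.39, adjusted p = 0.00468; 0.0558 without feeder replicate 10). Secreted liver proteins were uneven: Alb, albumin, read 771, 14.9 and 243 in 4+8 day cells and 30.6 and 21.5 in feeder fibroblasts (2.29 ± 1.27, adjusted p = 0.208; 0.0155 without 4+8 day replicate 2), and Afp, alpha-fetoprotein, 78, 20.5 and 58 in 4+8 day cells and 8.54 and 26.3 in feeder fibroblasts (adjusted p = 0.0935; 0.0152 without 4+8 day replicate 2). The higher count was 13 without 4+8 day replicate 2 and 2 without feeder replicate 10, and the counts were 19 higher and 0 lower with intensities as deposited and 15 and 0 with arrays scaled to a common trimmed mean. Apoa1 did not pass the intensity filter.

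Endothelial genes were 8 higher, 0 lower and 12 not passing of 20. Cdh5, VE-cadherin, which joins endothelial cells, read 74.4, 95.6 and 115 in 4+8 day cells and 15.3 and 5.12 in feeder fibroblasts (2.54 ± 0.32, adjusted p = 0.000792). Kdr, the VEGF receptor of endothelium and of its mesodermal precursors, had 97.7, 111 and 171 in 4+8 day cells and 20.3 and 18.3 in feeder fibroblasts (2.27 ± 0.28, adjusted p = 0.000781), and Emcn, endomucin, differed by 2.09 ± 0.27 (adjusted p = 0.000947). Pecam1, another endothelial marker, was at 119, 24.6 and 96.4 in 4+8 day cells and 36 and 42.2 in feeder fibroblasts (adjusted p = 0.327; 0.00813 without 4+8 day replicate 2). Lower endothelial genes numbered 0 at an unadjusted p below 0.05. The higher count was 5 without 4+8 day replicate 1 and 4 with feeder replicate 6 or 10 left out, and 12 with intensities as deposited.

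Globin and erythroid genes were higher in 9 of 17 cases, lower in 0 and not passing in 8. Hba-a1, adult alpha-globin, read 385, 106 and 869 in 4+8 day cells and 45.2 and 45.9 in feeder fibroblasts (2.67 ± 0.65, adjusted p = 0.0152; 0.0827 without feeder replicate 6 and 0.0921 without replicate 10). The embryonic globin Hbb-bh1 had 172, 34.2 and 298 in 4+8 day cells and 15.7 and 13.1 in feeder fibroblasts (2.56 ± 0.63, adjusted p = 0.0152; 0.0742 and 0.1 without those arrays). Replicate 2 was the lowest 4+8 day array for both, and globin probe sets can bind transcripts of sister genes. The list's largest difference was that of Lyl1, at 298, 73.2 and 588 in 4+8 day cells and 17.1 and 8.75 in feeder fibroblasts (3.58 ± 0.98, adjusted p = 0.0236). It did not pass without 4+8 day replicate 1 (adjusted p = 0.0573) or 3 (adjusted p = 0.0525). Lyl1 did not follow the globins across groups. In 4+11 day replicates 4, 8 and 12 it read 899, 92.5 and 900, where Hba-a1 read 61.4, 44.7 and 51.5. Lmo2, a LIM factor of blood and endothelial precursors, differed by 2.05 ± 0.31 (adjusted p = 0.00187). Lower erythroid genes numbered 1 at an unadjusted p below 0.05. Erythroid counts varied with single arrays, from 12 higher without 4+8 day replicate 2 and 5 without replicate 1 to 2 without feeder replicate 6 and 1 without replicate 10.

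Macrophage and leukocyte genes showed how unlike the 4+8 day cultures were. The list summed to 7555, 1632 and 15447 in 4+8 day replicates 1, 2 and 3 and to 3855 and 2559.5 in the feeder arrays, so that replicate 2 lay below both feeder arrays and replicates 1 and 3 above them. Tyrobp, an adaptor of myeloid receptors, read 534, 15.6 and 1127 in 4+8 day cells and 53.3 and 36 in feeder fibroblasts (2.23 ± 1.44, adjusted p = 0.277; 0.0146 without 4+8 day replicate 2). C1qb, a complement chain made by macrophages, had 374, 7.4 and 857 in 4+8 day cells and 67.7 and 29.7 in feeder fibroblasts (1.69 ± 1.53, adjusted p = 0.445; 0.0371 without 4+8 day replicate 2). Lyz2, lysozyme, was at 821, 3.86 and 966 in 4+8 day cells and 452 and 171 in feeder fibroblasts (−0.43 ± 1.97, adjusted p = 0.889). The groups overlapped for all 3 genes. Over the list, 3 of 34 genes were higher (Cybb, Cd74 and Fcgr3), 1 was lower (Lgals3, which fibroblasts make too) and 30 did not pass. That is 8.82% higher and 2.94% lower, against 12.7% and 15.4% of all genes. Without 4+8 day replicate 2, 11 were higher, against 10 with intensities as deposited, 4 with arrays scaled to a common trimmed mean, 1 without replicate 3 and 0 without replicate 1, feeder replicate 6 or feeder replicate 10.

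**Figure D4:**
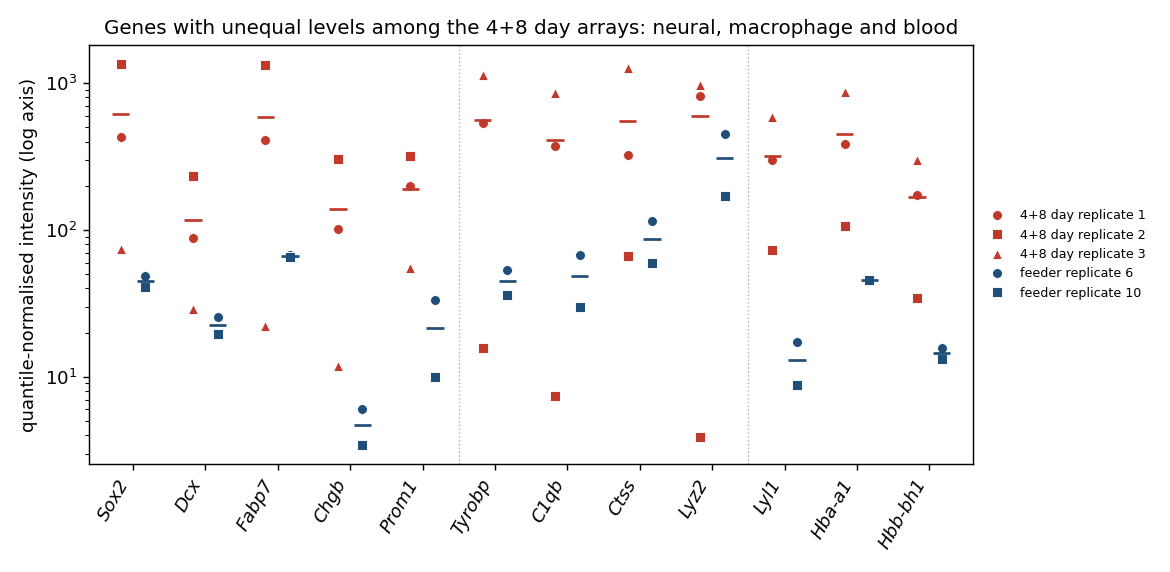
Quantile-normalised intensity (log axis) of neural, macrophage and blood genes, 1 point per array, 4+8 day arrays in red left of feeder arrays in blue, with bars for group means. Sox2 lies at 431, 1342 and 74.3 and Tyrobp at 534, 15.6 and 1127 in 4+8 day replicates 1, 2 and 3, so replicate 2 is the highest for the one and the lowest for the other.

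The nestin label was checked next. Nes read 233, 417 and 195 in 4+8 day cells and 573 and 351 in feeder fibroblasts, so the groups overlapped and 4+8 day replicate 2 alone stood above a feeder array (−0.73 ± 0.35, adjusted p = 0.151; 0.0306, as a lower value, without 4+8 day replicate 2). Sox2, a factor of neural progenitors and ES cells, had 431, 1342 and 74.3 in 4+8 day cells and 48.4 and 41 in feeder fibroblasts (2.80 ± 1.14, adjusted p = 0.0959; 0.0174 without 4+8 day replicate 3). Each 4+8 day array was above both feeder arrays, over a wide range. Of the other progenitor markers, Sox1, Pax6 and Msi1 differed by 0.46 ± 0.56, 0.91 ± 0.72 and 0.21 ± 0.51, with adjusted p = 0.576, 0.374 and 0.794.

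Over 32 tested genes of neural progenitors, 4 were higher, 4 were lower and 24 did not pass. The shares, 12.5% each way, were near or below the 12.7% and 15.4% of all genes. Summed intensities were 8419.6, 14944 and 5161 in 4+8 day replicates 1, 2 and 3 and 4475 and 3305 in the feeder arrays. En1, a homeobox factor of the midbrain that is also active in skin and limb, was lower, at 3.31, 3.91 and 24.8 in 4+8 day cells and 115 and 167 in feeder fibroblasts (−3.16 ± 0.48, adjusted p = 0.00187). Ptn, the growth factor pleiotrophin, had 36.1, 30.7 and 28.2 in 4+8 day cells and 328 and 157 in feeder fibroblasts (−2.57 ± 0.51, adjusted p = 0.00635; 0.0663 without feeder replicate 6). Id2, an inhibitor of basic helix-loop-helix factors, read 1769.6, 3119 and 1182 in 4+8 day cells and 474 and 296 in feeder fibroblasts (2.29 ± 0.54, adjusted p = 0.0129; 0.115 without feeder replicate 10). Higher and lower counts were 2 and 2 without feeder replicate 6 and 0 and 3 without replicate 10, and 10 and 2 with intensities as deposited.

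Neuronal genes were 5 higher, 2 lower and 23 not passing of 30, and 0 were higher with feeder replicate 6 or 10 left out. Tubb3, neuronal beta-tubulin, read 1655, 2037 and 684 in 4+8 day cells and 898 and 999 in feeder fibroblasts (adjusted p = 0.503), and Dcx, doublecortin of migrating neurons, 88.4, 231 and 28.8 in 4+8 day cells and 25.6 and 19.5 in feeder fibroblasts (adjusted p = 0.273). Crmp1, a growth cone protein, had 251, 310.4 and 58.2 in 4+8 day cells and 32.8 and 23.8 in feeder fibroblasts (2.29 ± 0.69, adjusted p = 0.0339), with adjusted p from 0.077 to 0.179 when 4+8 day replicate 1 or 2 or feeder replicate 6 or 10 was left out. Counts of the neuronal list were 11 higher and 0 lower with intensities as deposited and 5 and 0 with arrays scaled to a common trimmed mean. In the main fit 16.7% of the list was higher and 6.67% lower, against 12.7% and 15.4% of all genes. Map2 did not pass the intensity filter.

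Of 15 tested dopaminergic neuron genes 3 were higher, 3 were lower and 9 did not pass. That is 20% each way, against 12.7% and 15.4% of all genes. Pitx3, a homeobox factor of midbrain dopaminergic neurons and lens, was dim but separate, at 69.9, 54 and 62.6 in 4+8 day cells and 9.29 and 12.1 in feeder fibroblasts (1.91 ± 0.24, adjusted p = 0.000792). Shh, a patterning signal of floor plate and endoderm, read 313, 415 and 91.2 in 4+8 day cells and 21.3 and 15.9 in feeder fibroblasts (3.17 ± 0.67, adjusted p = 0.008; 0.0702 without feeder replicate 10). Th, tyrosine hydroxylase, had 129, 107 and 72.1 in 4+8 day cells and 24.3 and 40.6 in feeder fibroblasts (1.45 ± 0.39, adjusted p = 0.0226; 0.0581 without 4+8 day replicate 1, 0.163 and 0.0658 without feeder replicates 6 and 10). Wnt5a, a signal of mesenchyme as well as of midbrain, was lower, at 3.13, 4.19 and 6.91 in 4+8 day cells and 142 and 112 in feeder fibroblasts (−3.41 ± 0.31, adjusted p = 0.000234). Nr4a2, also called Nurr1, differed by 0.08 ± 0.53 (adjusted p = 0.922). Without feeder replicate 10 1 gene was higher, and without 4+8 day replicate 3 5 were. The even split depends on the scaling: it was 8 higher and 2 lower with intensities as deposited and 5 and 2 with arrays scaled to a common trimmed mean.

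In the glial list 3 of 11 genes were higher, 1 was lower (Pdgfra) and 7 did not pass. Aldoc, the brain aldolase, read 301, 155 and 249 in 4+8 day cells and 23.4 and 28.3 in feeder fibroblasts (2.80 ± 0.54, adjusted p = 0.00534). Apoe, the apolipoprotein of glia, macrophages and endoderm, had 1727, 738 and 4381 in 4+8 day cells and 285 and 195 in feeder fibroblasts (2.87 ± 0.82, adjusted p = 0.0283), with adjusted p from 0.0573 to 0.167 when 4+8 day replicate 1 or 3 or feeder replicate 6 or 10 was left out. Mbp, myelin basic protein, differed by 0.96 ± 0.26 (adjusted p = 0.0225; 0.073 and 0.162 without feeder replicates 6 and 10), and Gfap, of astrocytes, by −0.32 ± 0.57 (adjusted p = 0.708). The higher count was 1 with feeder replicate 6 or 10 left out.

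Of 25 tested pluripotency genes, 3 were higher, 1 was lower and 21 did not pass. The higher share, 12%, was near the 12.7% of all genes, and the lower share was 4% against 15.4%. The list summed to 2889.9 to 5373 in the 4+8 day arrays, 2791 and 2826 in the feeder arrays and 30298 to 33707 in undifferentiated cells. Pou5f1 had 29.4, 22.8 and 31.7 in 4+8 day cells and 10.9 and 6.89 in feeder fibroblasts (1.09 ± 0.26, adjusted p = 0.0141). Its log2 difference was 0.92 without feeder replicate 10. It did not pass when 33 was added instead of 8, or when the 5 arrays were fitted alone. All 5 values lay below the intensity filter of 33.4, so Pou5f1 was tested only because undifferentiated cells read higher. Nodal, also among the higher genes, had 16.3, 27.3 and 36.4 in 4+8 day cells and 5.65 and 3.08 in feeder fibroblasts. Fgf4, a growth factor of ES cells, read 270.2, 276 and 138 in 4+8 day cells and 73.5 and 58.6 in feeder fibroblasts (1.62 ± 0.30, adjusted p = 0.00431; 0.0529 without feeder replicate 10). Nanog and Zfp42 differed by 0.64 ± 0.26 (adjusted p = 0.0889) and 0.23 ± 0.20 (adjusted p = 0.424). The higher count was 9 without 4+8 day replicate 3, 0 without feeder replicate 10 and 12 with intensities as deposited.

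Growth factor pathways changed by member. In the IGF list 4 of 11 genes were lower and 1 was higher (Igf1, above), and Igfbp6, which binds IGF2, read 34.1, 115 and 78.6 in 4+8 day cells and 524 and 416 in feeder fibroblasts (−2.63 ± 0.44, adjusted p = 0.00293). The lower count was 2 with feeder replicate 6 or 10 left out, and the balance was 3 higher and 2 lower with intensities as deposited and 2 and 2 with arrays scaled to a common trimmed mean. Among 33 genes of the TGF-beta, BMP and Nodal pathways 7 were higher and 7 lower. The activin subunit Inhbb had 3.65, 4.06 and 1.94 in 4+8 day cells and 81.9 and 189.6 in feeder fibroblasts (−3.58 ± 0.44, adjusted p = 0.000757). Type II receptors went opposite ways: Acvr2b, of activins, read 429, 450.0 and 374 in 4+8 day cells and 51 and 54.2 in feeder fibroblasts (2.81 ± 0.34, adjusted p = 0.000739), and Bmpr2, of BMPs, 29.8, 29.5 and 8.24 in 4+8 day cells and 245 and 173 in feeder fibroblasts (−2.91 ± 0.36, adjusted p = 0.000739). Without feeder replicates 6 and 10 the counts were 4 and 4 higher and 5 and 4 lower.

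Of 35 Wnt and FGF genes 6 were higher and 6 lower (2 and 3 without feeder replicate 10, 3 and 4 without replicate 6, 17 and 3 with intensities as deposited). Tcf7l1, the Wnt-pathway repressor Tcf3, read 779, 780.1 and 733 in 4+8 day cells and 209.5 and 188 in feeder fibroblasts (1.90 ± 0.19, adjusted p = 0.000318), but its dimmer probe set gave 0.03 (adjusted p = 0.948). In the retinoid list 2 of 15 genes were higher and 3 lower (13.3% and 20%, against 12.7% and 15.4% of all genes). The nuclear receptors Rarg and Rara were among the lower ones, with 4.5, 5.05 and 7.95 in 4+8 day cells and 114 and 81.1 in feeder fibroblasts for Rarg (−2.92 ± 0.32, adjusted p = 0.000432) and a log2 difference of −2.02 ± 0.25 for Rara (adjusted p = 0.000806). Aldh1a7, an aldehyde dehydrogenase, was higher, by 1.98 ± 0.35 (adjusted p = 0.00361). The retinoid counts were 3 higher and 5 lower without 4+8 day replicate 2, 1 and 2 without feeder replicate 6, 0 and 1 with the filter at the 60th percentile, and 3 and 2 with intensities as deposited.

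Imprinted genes were higher in 7 of 26 cases, lower in 0 and not passing in 19. Phlda2, a maternally expressed restrainer of placental growth, read 552, 174 and 272 in 4+8 day cells and 24 and 19.8 in feeder fibroblasts (3.36 ± 0.38, adjusted p = 0.000543). Nnat, the paternally expressed neuronatin, had 600.4, 817 and 494 in 4+8 day cells and 65.7 and 13.3 in feeder fibroblasts (4.00 ± 0.92, adjusted p = 0.0119; 0.123 without feeder replicate 10), and Slc38a4, an amino acid transporter, differed by 1.95 ± 0.34 (adjusted p = 0.00352). Lower imprinted genes numbered 2 at an unadjusted p below 0.05. The higher count was 2 without feeder replicate 10 and 14 with intensities as deposited.

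Hox genes, which record position along the body axis, were 1 higher, 6 lower and 15 not passing of 22. Hoxa7 read 10.5, 7.89 and 5.51 in 4+8 day cells and 84.9 and 68.6 in feeder fibroblasts (−2.41 ± 0.20, adjusted p = 0.000187), and Hoxa11, a limb and uterus gene, 7.83, 2.41 and 16.8 in 4+8 day cells and 74.6 and 70.6 in feeder fibroblasts (−2.33 ± 0.31, adjusted p = 0.000954). Hoxd8 differed by −1.27 ± 0.18 (adjusted p = 0.00142). With the filter at the 60th percentile, which drops dimmer probe sets, 1 Hox gene was higher and 1 lower. The lower count was 3 without feeder replicate 6, and with intensities as deposited 5 were higher and 3 lower.

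Few cell cycle genes passed: 6 of 68 were higher, 6 were lower and 56 did not pass, below the 12.7% and 15.4% of all genes. Mki67 and Cdk1, which mark cycling cells, differed by −0.60 ± 0.36 (adjusted p = 0.239) and 0.30 ± 0.30 (adjusted p = 0.48). Plk4, the kinase of centriole duplication, was one of the lower genes, at 147, 154 and 132 in 4+8 day cells and 625 and 601 in feeder fibroblasts (−2.03 ± 0.37, adjusted p = 0.00428). Counts were 1 higher and 2 lower without feeder replicate 6, 2 and 1 without replicate 10, and 9 and 1 with intensities as deposited.

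Stress and immediate early genes were 1 higher, 10 lower and 32 not passing of 43, and the lower count was 3 without feeder replicate 6, 0 without replicate 10, 5 without 4+8 day replicate 1 and 4 with intensities as deposited. Fosl1, the AP-1 subunit Fra-1, read 11.5, 32.6 and 6.23 in 4+8 day cells and 94.5 and 148 in feeder fibroblasts (−2.49 ± 0.55, adjusted p = 0.00967; 0.0916 without feeder replicate 10). Atf3, a stress-induced repressor, was the higher gene, at 232, 622 and 529 in 4+8 day cells and 78.7 and 77.6 in feeder fibroblasts (2.33 ± 0.62, adjusted p = 0.0208; 0.0994 and 0.113 without feeder replicates 6 and 10).

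Of 43 oxidative phosphorylation genes 12 were higher (27.9%), 3 were lower and 28 did not pass, with most differences small. Beyond the muscle forms Cox6a2 and Cox8b, Ndufb8 of complex I read 1281, 1212 and 1016 in 4+8 day cells and 589 and 471 in feeder fibroblasts (1.13 ± 0.21, adjusted p = 0.00471; 0.063 without feeder replicate 10), and 3 genes were higher with feeder replicate 6 or 10 left out (2 and 1 lower). The oxidative phosphorylation counts were 18 higher and 1 lower with intensities as deposited and 12 and 5 with arrays scaled to a common trimmed mean. In the glycolysis and hypoxia list 5 of 25 were higher and 2 lower (2 higher and 1 lower with feeder replicate 6 or 10 left out). That balance turned to 3 higher and 4 lower without 4+8 day replicate 3, against 8 and 2 without replicate 2 and 9 and 1 with intensities as deposited. Slc2a3, a glucose transporter of neurons and embryo, had 335, 323 and 317 in 4+8 day cells and 40.2 and 30.5 in feeder fibroblasts (2.95 ± 0.27, adjusted p = 0.000246). Adm, the vasodilator peptide adrenomedullin, was at 8.26, 4.41 and 35.2 in 4+8 day cells and 154 and 274 in feeder fibroblasts (−3.38 ± 0.48, adjusted p = 0.00136). The shares of the lipid list, 11.5% each way, were below the 12.7% and 15.4% of all genes. Lipid genes were 3 higher and 3 lower of 26 (0 and 0 without feeder replicate 6, 5 and 2 with intensities as deposited), among them Cebpb, a factor of adipocytes and inflammation (−2.80 ± 0.70, adjusted p = 0.0164; 0.0527 and 0.134 without feeder replicates 6 and 10). Intermediate filament genes were 4 higher and 1 lower of 16 (2 and 1 higher without feeder replicates 6 and 10), and the lower one was Lmna, the lamin of stiff tissues (−2.39 ± 0.41, adjusted p = 0.00339).

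A pair of genes outside the tissue lists stood among the 12 highest differences. Hsd11b2, which inactivates glucocorticoids, read 462, 254 and 191 in 4+8 day cells and 14.3 and 6.89 in feeder fibroblasts (4.00 ± 0.50, adjusted p = 0.000781). Bex4, an X-linked brain-expressed gene, had 1426, 1296 and 1147 in 4+8 day cells and 88 and 53.7 in feeder fibroblasts (4.07 ± 0.44, adjusted p = 0.000432). Xist, the non-coding RNA that coats the silenced X, was at 24.8, 3.05 and 10.2 in 4+8 day cells and 188 and 173 in feeder fibroblasts (−3.33 ± 0.41, adjusted p = 0.000757). Eif2s3y, a Y-linked translation factor, read 115, 107 and 116 in 4+8 day cells and 64 and 58.1 in feeder fibroblasts (0.80 ± 0.24, adjusted p = 0.0323; 0.0589 without 4+8 day replicate 1, 0.114 and 0.179 without feeder replicates 6 and 10). The groups overlapped for neither sex-linked gene.

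For the 12 lowest differences the feeder level can be set beside every group, and per the labels the undifferentiated cells had grown on feeders. Thy1 stood at 42.9% of the feeder mean in undifferentiated cells, 0.907% at 4+8 days and 15.8% at 4+11 days. Bgn stood at 35.5%, 3.04% and 6.64% in the same order, Emp1 at 38.7%, 4.03% and 45.1%, and Osmr at 26%, 4.63% and 14.4%. Mgp, an inhibitor of calcification, was at 7.39, 6.28 and 9.1 in 4+8 day cells and 1572 and 328 in feeder fibroblasts (−5.55 ± 0.77, adjusted p = 0.00122), with 19.3%, 0.799% and 13.9% of the feeder mean in the 3 ES-derived groups. Ccn3, a matricellular protein also called Nov, differed by −5.40 ± 0.77 (adjusted p = 0.00142), and C1qtnf3, a secreted protein related to adiponectin, by −5.26 ± 0.35 (adjusted p = 6.83e-05). Mean levels at 4+8 days were at most 4.63% of the feeder mean for these 12 genes. Cxcl1 was the one whose mean in undifferentiated cells was above the feeder mean (165%), against 3.08% at 4+8 days and 4.99% at 4+11 days.

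**Figure D5:**
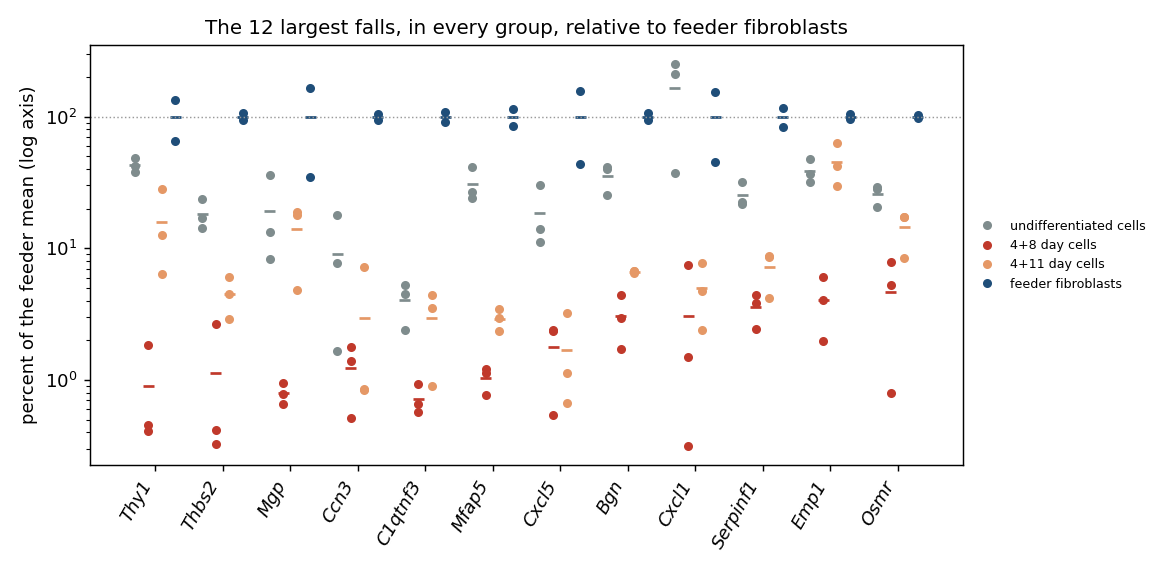
Intensity as a percent of the feeder mean (log axis, feeder mean = 100) for the 12 genes with the lowest 4+8 day minus feeder differences, 1 point per array and bars for group means, in the order undifferentiated, 4+8 day, 4+11 day and feeder. Group means at 4+8 days lie between 0.723% and 4.63% of the feeder mean.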

How the data were processed

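RNA was measured on 11 Affymetrix MG_U74Av2 arrays. The deposited values are intensities per probe set, 1 per array. The sources used here do not name the authors' summarisation program. Of the 12488 probe sets, 10833 had 1 gene symbol, 396 had several and 1193 had none, and 66 were controls. No pair of arrays held identical values. Intensities were quantile normalised over all 11 arrays, 8 was added (the deposited intensities' 20th percentile, rounded), and log2 was taken. Probe sets above 33.4 (the 40th percentile) on 2 or more arrays were kept. A gene was read by its probe set with the highest mean. limma 3.58.1 (R 4.3.3) fitted 4 groups, with 7 residual degrees of freedom. It was also run on simulated data in which all groups shared the spread of a probe set. That run could not test the unequal spread of the real groups, a median SD of 0.45 at 4+8 days against 0.155 for feeder arrays. The number of arrays limits the precision.

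Groups came from the titles. A rule picked the 12 highest and 12 lowest differences among non-overlapping genes that passed. It added up to 4 passing members of each list with the largest differences, and fixed markers. The text describes only part of these genes. Among those left out were Prom1, Stmn3, Nefl, Cldn5, Ifi204 and Dlk1. Each of these lost its call when 1 or another of the 4+8 day arrays was left out. The macrophage marker Ctss, which did not pass, was left out too. Other named members were chosen after their values were seen. Members and lists were chosen with earlier results of these data known. Alternatives changed the scaling, the pseudocount, the filter, the arrays fitted, the variance model and the weights. Promoter sequences are RefSeq's.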

Additional observations from a re-analysis of the deposited data

How the results depend on the processing

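The main fit called 2452 probe sets, 1119 higher and 1333 lower in 4+8 day cells (45.6% higher), 141 of the 166 genes named by rule and 310 list members. With intensities as deposited 2666 were higher and 503 lower, 84.1% higher, and with arrays scaled to a common trimmed mean 1804 were higher, 62.7% of those called. Fitting the 5 arrays alone gave 648 calls (245 higher, 403 lower) and 141 list members, 637 of the calls shared with the main fit. Normalising them alone as well gave 546 calls (206 higher, 340 lower), 92 named genes and 126 list members, with 534 calls shared. Leaving out 1 array at a time gave 728 to 2831 calls, 294 to 1356 higher and 434 to 1475 lower, 40.4% to 47.9% higher, 85 to 139 named genes and 124 to 347 list members. The lowest counts came without feeder replicate 10 (726 calls shared) and the next lowest without feeder replicate 6 (1015 shared), where the lone feeder array was assumed to vary like the other groups. The cause was not tested, beyond the fewer arrays in these fits. Other pseudocounts, filters, variance model and array weights kept each of these counts within 1.5 times the main one. Of the named genes, 79 passed in each of the 5 fits that left out 1 array. No paired analysis was possible because the groups share no replicate numbers.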
